A study of Mus musculus with 7 samples.

Results

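Class 3 semaphorin signaling was followed here through the mouse neural crest by 9 genes: the secreted ligands Sema3a, Sema3c, Sema3d and Sema3f, the co-receptors Nrp1 and Nrp2, and the signaling receptors Plxna2, Plxna4 and Plxnd1. They are 9 of the 32285 genes in the count tables and were chosen by symbol, with no measured value in the rule. Droplet single-cell RNA sequencing was available for 7 libraries of EGFP-positive, DAPI-negative cells sorted from Wnt1-Cre/+;ROSA-EGFPf/+ embryos on a mixed Swiss-Webster background, and each library was a pool of embryos. Control libraries came from E8.5 (1 library, anterior part of the embryo), E9.5 (1 library, pharyngeal apparatus and heart) and E10.5 (2 libraries, arches 2 to 6 and heart). Null libraries came from E9.5 (1 library, the same dissection) and E10.5 (2 libraries, tissue below arches 1 and heart). The sample titles call the latter Tbx1null, whereas their genotype field reads Wnt1-Cre/+;Tbx1+/-;ROSA-EGFPf/+, and they are called null here after the titles. Wnt1-Cre marks the dorsal neural tube as well as the crest, so the sorted cells held neural progenitors and neurons beside crest cells. The supplement of the study gives the null embryos as Tbx1-/-, a loss in every cell of the embryo and not in the crest alone.

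Class 3 semaphorins are secreted guidance proteins. A neuropilin binds the ligand and a plexin of the A or D class carries the signal into the cell, where it acts on small GTPases and the cytoskeleton and in most settings makes the cell turn away. In the cardiac crest the pathway is known for guiding cells into the outflow tract and for septation of the aorta and pulmonary artery, with Sema3c and Plxnd1 as its best known ligand and receptor there, whereas Sema3a and Sema3f with Nrp1 and Nrp2 are known for keeping crest streams and sensory axons apart.

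The libraries held 65862 barcodes and 53544 kept cells, from 140264662 to 234844769 UMIs (unique molecular identifiers, each standing for 1 captured transcript) per library and a median of 14855 to 22882 UMIs per kept cell. Levels are in CPM, the UMIs of a gene scaled to the same total of UMIs in every sum of cells. Tbx1 itself was low in the sorted cells of every E10.5 library, at 5.14 and 3.76 CPM in the controls and 2.97 and 2.67 in the null libraries, so its transcript was still counted in libraries labelled null. At E9.5 it was at 0.686 CPM (95% Poisson interval 0.570 to 0.819) in the control and 0.610 (0.506 to 0.729) in the null library, which overlap. The capture kit moved with genotype: at E10.5 both controls and null replicate 2 used version 3.1 and null replicate 1 used version 3, and at E9.5 the control used version 3.1 and the null library version 3. By the supplement of the study, the embryos of null replicate 1 at E10.5 had fewer somites than those of the other E10.5 libraries. The part of this in the differences between genotypes was not tested. Null replicate 2 stood apart. Its mesenchymal cells carried Tubb3, a neuronal tubulin, at 132 CPM against 16.4 to 36.4 in the other E10.5 libraries. Any pair of libraries shared at most 0.357% of cell barcodes.

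Cells were placed in classes by the UMIs of marker genes. Mesenchymal cells had at least 2 UMIs of Twist1, Prrx1 and Prrx2, Sox10 cells at least 2 of Sox10, a factor of migrating and glial crest, and neuronal cells at least 3 of Elavl3, Elavl4 and Stmn2. Cells past more than 1 of these gates were set aside, and progenitors were cells past none of them with at least 2 UMIs of Sox1, Sox2 and Sox3. At E10.5 the libraries held 1516 to 6533 mesenchymal, 151 to 779 Sox10, 1001 to 2510 neuronal and 601 to 2143 progenitor cells. Mesenchymal cells were split in turn into Foxf1 cells (197 to 397 per library), Hox 3 cells with Hoxa3, Hoxb3 or Hoxd3 (730 to 1301), which mark arches from the third downward, Hoxa2 cells (186 to 1639) and remaining cells (312 to 3496). Foxf1 cells carried the cardiac crest genes Hand1, Gata3, Isl1 and Gata6 at a summed 205 to 295 CPM against 27.8 to 53.8 in Hox 3 cells. The sum was 15.9 to 98.7 in Hoxa2 cells, 74.8 to 149 in remaining cells and 20 to 225 in neuronal cells. Contractile cells were mesenchymal cells with at least 20 UMIs of the smooth muscle genes Acta2 and Tagln (45 to 142 per library) and overlap the other mesenchymal groups. In contractile cells the sum of the cardiac crest genes was 502 to 698 CPM. A level is the CPM of a gene in all cells of a class in 1 library, and E10.5 values are given in the order control replicate 1, control replicate 2, null replicate 1, null replicate 2. The counts are of transcript 3′ ends, so levels were compared between cells and not between genes. Fewer cells of a state within a class and less RNA per cell cannot be told apart in such sums.

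By the GENCODE annotation of GRCm38 (mm10), the build of the tables, Sema3a (ENSMUSG00000028883) lies at chr5:13125414-13602565, Sema3c (ENSMUSG00000028780) at chr5:17574281-17730268 and Sema3d (ENSMUSG00000040254) at chr5:12383385-12588948, all on the plus strand. Sema3f (ENSMUSG00000034684) lies at chr9:107681500-107710475 on the minus strand. The neuropilin genes lie on the plus strand, Nrp1 (ENSMUSG00000025810) at chr8:128358604-128503363 and Nrp2 (ENSMUSG00000025969) at chr1:62703285-62818695. Plxna2 (ENSMUSG00000026640) lies at chr1:194618218-194816869 on the plus strand, and Plxna4 (ENSMUSG00000029765) at chr6:32144268-32588192 and Plxnd1 (ENSMUSG00000030123) at chr6:115954811-115995005 on the minus strand. No member overlapped another counted gene on its own strand. On the opposite strand Nrp2 overlapped Gm29083 and Plxna4 overlapped 3 antisense genes.

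Nrp1 and Plxnd1 were the members highest in contractile cells relative to other mesenchyme (values follow), and the 250 bases before their RefSeq starts (GRCm38.p6) are shown for that reason, 5′ to 3′ on the gene's strand, with GATAA, the core letters bound by GATA factors, in capitals on either strand.
Nrp1, chr8:128358823-128359072, plus strand: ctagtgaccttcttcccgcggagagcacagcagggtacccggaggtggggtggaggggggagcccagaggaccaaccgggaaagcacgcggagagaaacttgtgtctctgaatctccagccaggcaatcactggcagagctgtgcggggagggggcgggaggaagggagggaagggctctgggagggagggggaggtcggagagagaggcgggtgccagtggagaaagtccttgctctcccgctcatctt
Plxnd1, chr6:115995006-115995255, minus strand: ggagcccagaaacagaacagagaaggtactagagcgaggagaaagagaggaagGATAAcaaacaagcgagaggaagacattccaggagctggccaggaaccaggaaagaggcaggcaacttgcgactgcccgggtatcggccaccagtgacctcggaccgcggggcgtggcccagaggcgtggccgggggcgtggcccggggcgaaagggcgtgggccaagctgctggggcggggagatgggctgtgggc
The window of Plxnd1 held 1 GATAA and that of Nrp1 held 0, and 22.6% of 32851 promoter windows of this length held at least 1. On either strand, neither window held the forkhead letters TGTTTAC (in 3.17% of all windows), the E-box CANNTG (66.2%) or a CArG box, the serum response element of smooth muscle genes (1.47%). A RefSeq window was at hand for 7 of the 9 members, all but Sema3f and Plxna4. Among the other 5, Plxna2 held 1 GATAA and Sema3a, Sema3c, Sema3d and Nrp2 held 0. The RefSeq starts used here are not all the outermost GENCODE starts. The windows of Nrp1, Sema3a, Sema3c and Plxna2 lay inside the genes as placed above, that of Sema3a beginning at chr5:13396534. Matches are those of the window alone and not of every promoter of a gene.

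To see which cells carried ligand and which carried receptor, classes were compared within the E10.5 libraries, with the library as a block and edgeR's quasi-likelihood test, Benjamini-Hochberg adjusted over all genes tested. The contrasts are those of the 2 control libraries, and the null libraries add only to the estimate of spread. Sox10 cells against mesenchymal cells gave 5 members higher and 3 lower of 9, where 29.9% of all genes passed (13.1% higher and 16.8% lower). Neuronal against mesenchymal cells gave 2 higher and 3 lower (62.8% of genes passed, 30.5% higher and 32.2% lower), progenitors against mesenchymal cells 3 higher and 5 lower (40%, 18% higher and 22.1% lower), and Sox10 against neuronal cells 5 higher and 2 lower (53.8%, 25.6% higher and 28.1% lower).

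Sema3a, a repellent of crest cells and axons, was a mesenchymal ligand. Its level in mesenchymal cells was 33.3, 43.2, 20.4 and 35.8 CPM, against 1.10, 1.26, 0.296 and 0.678 in Sox10 cells and 1.10 to 1.95 in neuronal cells. Every mesenchymal value lay far above every Sox10, neuronal and progenitor value. The log2 difference was -5.06 ± 0.29 (SE) for Sox10 cells (adjusted p = 1.63e-06), -4.99 ± 0.24 for neuronal cells (adjusted p = 1.79e-07) and -4.11 ± 0.22 for progenitors. These calls held without each library in turn. After each cell was thinned to 5000 UMIs, 7.83% to 16.6% of mesenchymal cells and 0% to 0.472% of Sox10 cells had a Sema3a UMI (29.0% to 38.4% and 0.770% to 1.99% before thinning).

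Sema3c, an attractant of cardiac crest cells made by outflow tract tissue, was spread more evenly. Its levels were 5.67, 4.74, 7.74 and 13.2 CPM in mesenchymal cells and 5.21, 4.65, 5.43 and 6.10 in Sox10 cells, which overlap, and the difference did not pass the test (-0.14 ± 0.27, adjusted p = 0.726). Progenitors had 8.16, 11.2, 11.1 and 12 CPM, and their difference from mesenchymal cells in the controls was 0.79 ± 0.21 (adjusted p = 0.0133), lost without control replicate 2 (adjusted p = 0.164). Neuronal cells had the lowest levels, 1.80 to 3.04 CPM, and differed from mesenchymal cells by -1.18 ± 0.25 (adjusted p = 0.0019) and from Sox10 cells, which were higher by 1.03 ± 0.32 (adjusted p = 0.0189, and 0.149 without control replicate 2).

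Sema3d, a ligand known for patterning vessels and crest migration, stood highest in Sox10 cells among these classes. It measured 4.93, 10.2, 2.96 and 3.66 CPM there and 1.07 to 1.39 in mesenchymal cells, without overlap, and the difference in the controls was 2.69 ± 0.28 (adjusted p = 6.03e-05). Against neuronal cells, at 1.05 to 1.80 CPM, Sox10 cells were higher by 2.09 ± 0.3 (adjusted p = 0.000238). Few cells showed it: a UMI was seen in 0.694% to 4.48% of thinned Sox10 cells against 0.137% to 0.237% of progenitors (5.78% to 11% and 0.393% to 0.801% before thinning). Progenitors had 0.317 to 0.754 CPM and differed from mesenchymal cells by -1.32 ± 0.37 (adjusted p = 0.017), lost without any of the 4 libraries but control replicate 2 (adjusted p from 0.0569 to 0.406).

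Sema3f, a ligand that prefers Nrp2, was held by mesenchymal cells (8.48, 7.60, 7.92 and 16.7 CPM) and neuronal cells (11.7, 11.7, 12 and 15.5). Sox10 cells had 0.543 to 2.17 CPM, below both classes in each library. They differed from mesenchymal cells by -2.7 ± 0.47 (adjusted p = 0.00171, and 0.0754 without control replicate 2) and from neuronal cells by -3.21 ± 0.47 (adjusted p = 0.000267).

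**Figure D1:**
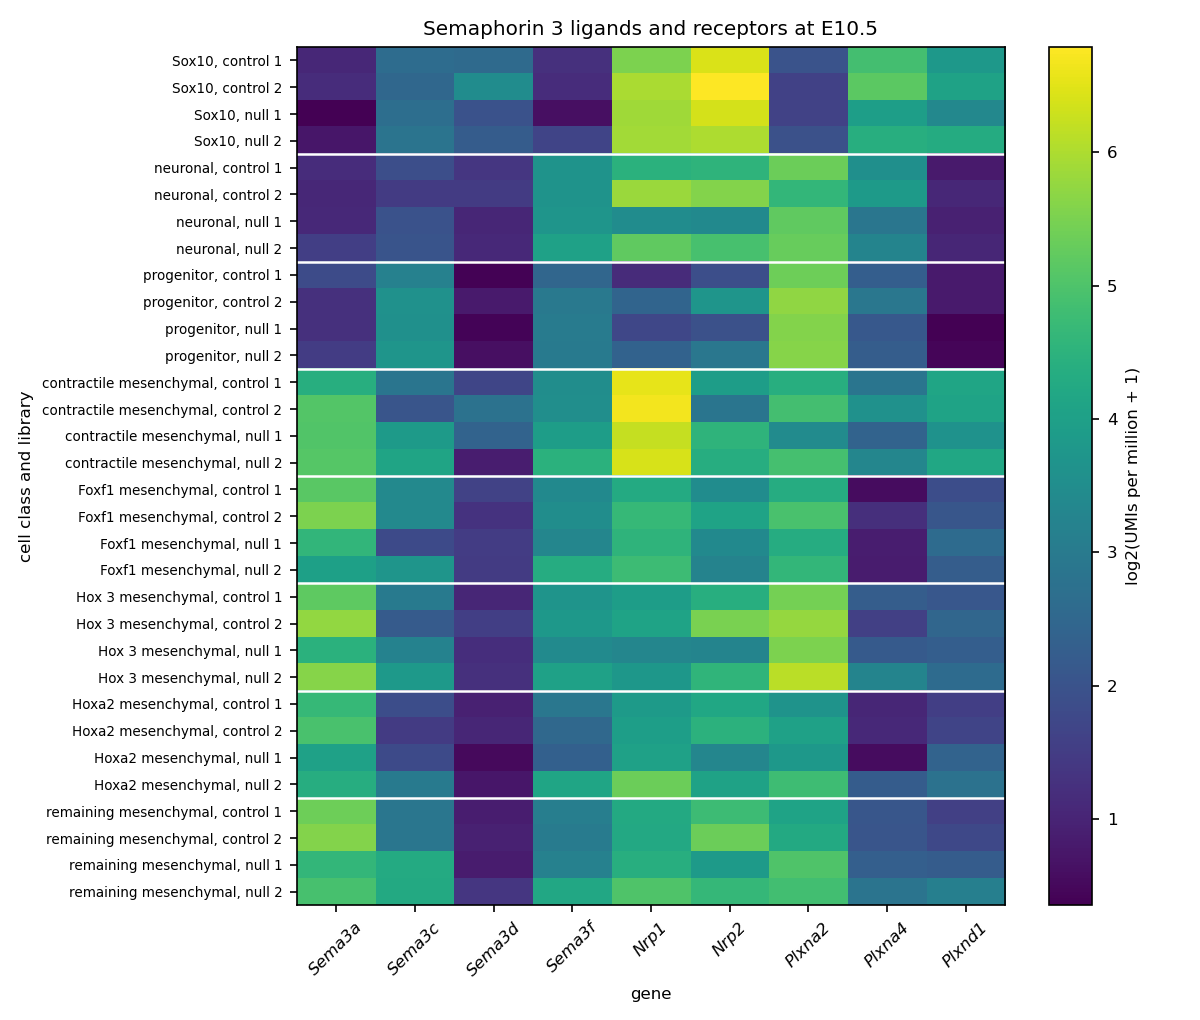
Heat map of the level of each member (columns, color as log2 of CPM + 1) in 8 cell classes of the 2 control and 2 null libraries at E10.5 (1 line per class and library). Sema3a is bright in the mesenchymal groups and dark in Sox10, neuronal and progenitor cells, whereas Nrp2 reaches 109.7 and Plxna4 34.8 CPM in Sox10 cells.

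Nrp1, the co-receptor that binds Sema3a and VEGF, measured 44.7, 62.0, 57.6 and 58.7 CPM in Sox10 cells, 15.7, 17.1, 14.3 and 21.6 in mesenchymal cells and 1.23 to 4.37 in progenitors. These 3 classes did not overlap. Sox10 cells were higher than mesenchymal cells by 1.58 ± 0.41 (adjusted p = 0.0147), lost without control replicate 2 (adjusted p = 0.134), and progenitors were lower by -2.96 ± 0.54 (adjusted p = 0.00158), lost without control replicate 1 (adjusted p = 0.0954). Neuronal levels varied within each genotype (21.0 and 55.6 in the controls, 10.1 and 36.2 in the null libraries), and their difference from mesenchymal cells (1.03 ± 0.39, adjusted p = 0.0381) was lost without control replicate 2 (0.39, adjusted p = 0.552).

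Nrp2, the co-receptor that binds Sema3c and Sema3f, was also highest in Sox10 cells, at 84.7, 109.7, 81.8 and 62.6 CPM against 19.9, 33.4, 9.64 and 19.8 in mesenchymal cells. Progenitors had 2.73 to 12.2 CPM (-2.21 ± 0.48, adjusted p = 0.00444, and 0.151 without control replicate 1). Each library had more in Sox10 cells than any had in mesenchymal cells, and the difference in the controls was 1.83 ± 0.41 (adjusted p = 0.00701). It missed the threshold without either control (adjusted p = 0.0686 and 0.0585, log2 difference 1.68 and 2.06). Neuronal cells had 22.1, 47.7, 9.71 and 29.3 CPM, and Sox10 cells were above them by 1.53 ± 0.42 (adjusted p = 0.0107, and 0.126 without control replicate 1). Thinned to 5000 UMIs, 17.4% to 25.2% of Sox10 cells had a Nrp1 UMI, 25.5% to 38.0% a Nrp2 UMI and 4.17% to 11.8% both. In progenitors, which carried little of either, the shares were 0.752% to 1.75%, 1.3% to 3.85% and 0% to 0.185%. Before thinning, with a median of 18129 to 26009 UMIs per Sox10 cell and 10344 to 16386 per progenitor, they were 45.7% to 63.4%, 63.0% to 73.9% and 31.1% to 46.0% in Sox10 cells and 1.70% to 5.16%, 3.21% to 8.01% and 0.197% to 1.16% in progenitors.

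The plexins were divided between the classes. Plxna2, a signaling receptor for class 3 and class 6 semaphorins, was low in Sox10 cells (3.01, 2.01, 2.07 and 2.85 CPM) and measured 21.4, 23.9, 31.0 and 48.7 in mesenchymal cells, 23.4 to 39.3 in neuronal cells and 40.1 to 51.9 in progenitors. Sox10 cells lay below every other class in each library, by -3.32 ± 0.37 against mesenchymal cells (adjusted p = 0.000102) and -3.77 ± 0.37 against neuronal cells (adjusted p = 2.03e-05). Progenitors exceeded mesenchymal cells by 0.94 ± 0.22 (adjusted p = 0.0064). These calls held without each library in turn.

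Plxna4, the plexin through which Sema3a acts on sensory and sympathetic cells, showed the opposite order. Sox10 cells had 28.2, 34.8, 14.7 and 20.1 CPM, neuronal cells 10.8, 13.5, 6.34 and 8.52, and mesenchymal cells 2.35, 2.27, 2.47 and 6.27. In each library Sox10 cells were highest and mesenchymal cells lowest of these 3 classes. The difference from mesenchymal cells was 3.7 ± 0.25 for Sox10 cells (adjusted p = 4.02e-06) and 2.35 ± 0.24 for neuronal cells (adjusted p = 1.68e-05), and Sox10 cells exceeded neuronal cells by 1.35 ± 0.24 (adjusted p = 0.000975). These held without each library in turn.

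Plxnd1, the receptor of the vascular and cardiac outflow system, measured 12.9, 15.7, 9.33 and 19.0 CPM in Sox10 cells, 2.35, 2.74, 4.08 and 5.48 in mesenchymal cells and 0.752 to 1.10 in neuronal cells, with no overlap. The difference from mesenchymal cells was 2.43 ± 0.2 for Sox10 cells (adjusted p = 1.48e-05), -1.53 ± 0.26 for neuronal cells (adjusted p = 0.000506) and -1.73 ± 0.27 for progenitors (adjusted p = 0.000632). As class sums in the controls, Sox10 cells were thus above mesenchymal cells in Sema3d, Nrp1, Nrp2, Plxna4 and Plxnd1, and below them in Sema3a, Sema3f and Plxna2. Of the last 3 only Sema3a was particular to mesenchymal cells. By edgeR's test neuronal cells did not differ from them in Sema3f (0.51 ± 0.26, adjusted p = 0.118) or Plxna2 (0.44 ± 0.22, adjusted p = 0.102). Mesenchymal cells also carried Nrp1 and Nrp2, at lower levels than Sox10 cells. A Nrp1 and a Plxnd1 UMI in 1 thinned cell was found in 1.09% to 2.78% of Sox10 cells, 0.164% to 0.464% of mesenchymal cells and 0 of 572 to 2108 progenitors per library, which allows up to 0.175% to 0.643% (Clopper-Pearson) of cells with both UMIs at this depth and sets no limit on cells that express both. Before thinning, Nrp1 and Plxnd1 were both seen in 11.3% to 22.8% of Sox10 cells, 1.62% to 3.63% of mesenchymal cells and 0% to 0.0933% of progenitors.

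Contractile cells, rich in smooth muscle transcripts, were set against all other mesenchymal cells. This test was added after the levels had been seen. Of the 9 members 4 were higher and 2 lower, where 34.5% of all genes passed (17.5% higher and 17% lower). Nrp1 measured 92.7, 100.5, 73.5 and 83.1 CPM in contractile cells and 13.3, 14.9, 13.1 and 19.2 in the rest. The groups were far apart in each library, and the difference in the controls was 2.71 ± 0.12 (adjusted p = 3.18e-13). Plxnd1 measured 16.6, 16.0, 11.4 and 17.1 CPM against 1.90, 2.39, 3.93 and 5.04. It too was higher in 4 of 4 libraries, by 2.86 ± 0.32 (adjusted p = 5.11e-07), and both calls held without each library in turn.

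Plxna4 was also higher in contractile cells of 4 of 4 libraries (6.27, 11.2, 4.28 and 8.96 CPM against 2.23, 2.03, 2.43 and 6.16; 1.96 ± 0.39, adjusted p = 0.000408), although not without control replicate 2 (adjusted p = 0.102). Sema3d was at 2.24, 5.93, 4.28 and 0.815 CPM against 1.03, 1.04, 1.01 and 1.41 (1.89 ± 0.6 in the controls, adjusted p = 0.0181). It was the other way round in null replicate 2, where the level in 45 contractile cells was near the counting floor. The contractile levels of Sema3d rested on few UMIs, and it was not called without control replicate 2 or after thinning (adjusted p = 0.0766). Sema3a fell below the rest in the controls, at 20.1 and 32.8 CPM against 33.7 and 43.4, while the null libraries had 32.1 and 33.4 against 20.2 and 35.9 (-0.61 ± 0.16, adjusted p = 0.00449), and was not called without control replicate 1 (adjusted p = 0.118). Nrp2 was lower in both controls, at 14.3 and 6.28 CPM against 20 and 34.2 (-1.51 ± 0.31, adjusted p = 0.000565), which was lost without control replicate 2 (-0.55, adjusted p = 0.241). In contrast to Sox10 cells, where Nrp1 and Nrp2 were both raised, contractile cells of the controls were thus high in Nrp1 and low in Nrp2.

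Contractile cells carried Rgs5, a gene of mural cells that the paper used as a smooth muscle marker, at 266 to 309 CPM. They carried markers of other cells as well. The 5 endothelial markers summed to 51.9 to 61.4 CPM in the controls and 27.8 to 38.3 in the null libraries, against 2.51 to 2.81 and 2.07 to 7.45 in other mesenchymal cells. Of these, Pecam1 was at 14.3 to 34.2 CPM in contractile cells, Kdr at 5.71 to 16.4 and Tek at 5.37 to 10.5, while the junction gene Cdh5 was at 0 in 3 of 4 libraries and at 0.448 in the other. The 4 epithelial markers summed to 225 to 308 CPM in control and 443 to 542 in null contractile cells, against 21.5 to 31.1 and 33.7 to 52.1 in other mesenchymal cells. The 4 progenitor markers summed to 248 to 313 and 275 to 424 CPM, against 61.6 to 122 and 197 to 363. The 4 neuronal markers summed to 96.6 to 98.5 and 111 to 224 CPM, against 29.8 to 41.8 and 51.1 to 177, and the 4 mesoderm markers to 33.8 to 39.8 and 33.5 to 39.9, against 5.66 to 9.85 and 7.85 to 15.2. The mesoderm markers were Tbx1, Tcf21, Mesp1 and Nkx2-5, so their sums include Tbx1 itself where genotypes are compared. The part of these other cells in the differences of the members, and in the genotype differences within contractile cells, was not tested. The heart muscle genes Myl7 and Tnnt2 reached 784 and 189 CPM in control replicate 1 but 1.40 and 3.14 in control replicate 2, and 67.6 and 102 in null replicate 2 but 1.43 and 0 in null replicate 1. Without cells that had 5 or more UMIs of these 2 genes, the differences of Nrp1 and Plxnd1 were 2.7 and 2.89, and 6 members still passed. After thinning, 27.4% to 31.1% of contractile cells had a Nrp1 UMI, against 6.68% to 7.57% of all mesenchymal cells (60.4% to 81.0% and 19.0% to 24.9% before thinning).

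**Figure D2:**
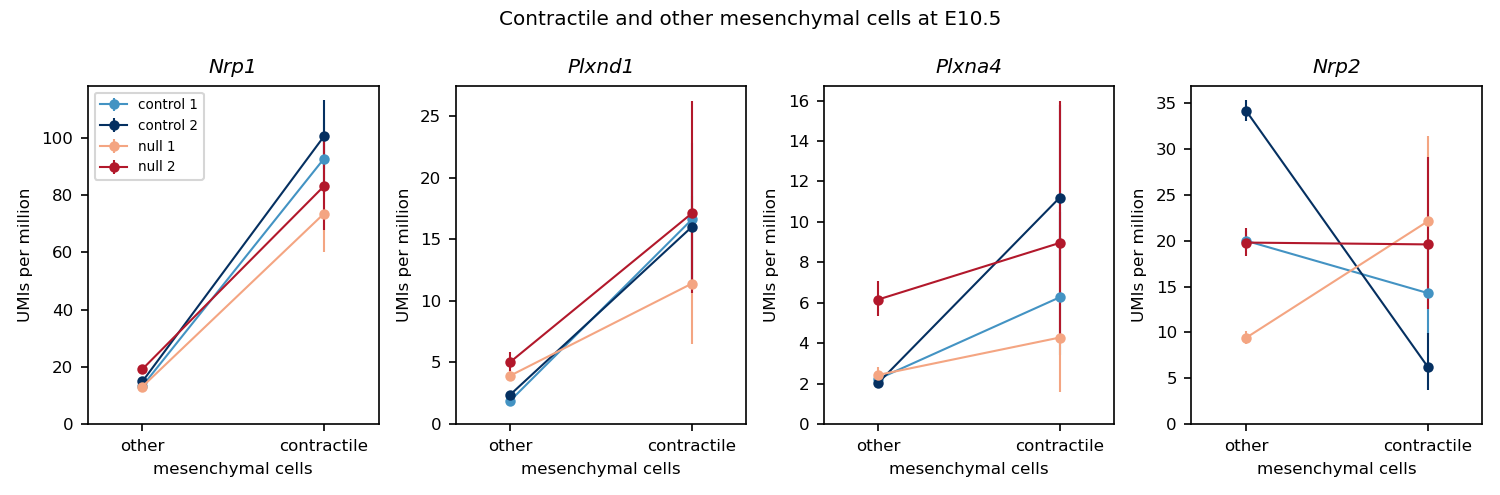
Levels (CPM, linear axis from 0) of Nrp1, Plxnd1, Plxna4 and Nrp2 in contractile and in other mesenchymal cells of each E10.5 library, with exact 95% Poisson intervals as bars and lines joining the values of 1 library. Nrp1 stands at 73.5 to 100.5 in contractile cells and at 13.1 to 19.2 in the rest, and Plxnd1 at 11.4 to 17.1 against 1.90 to 5.04.

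Within the mesenchyme, subclasses were compared to separate second arch, caudal arch and outflow cells. Hox 3 against Hoxa2 cells gave 7 members higher and 0 lower, where 14.7% of all genes passed (7.89% higher and 6.83% lower). Foxf1 against Hoxa2 cells gave 3 higher and 0 lower (22.9% of genes passed, 10.2% higher and 12.7% lower), and Foxf1 against Hox 3 cells 0 higher and 3 lower (18.1%, 9.2% higher and 8.89% lower). In control Foxf1 cells mesoderm markers summed to 28.7 to 34.2 CPM, against 10.3 to 16.4 in Hox 3 and 1.58 to 2.29 in Hoxa2 cells. Smooth muscle markers summed to 74 to 77, against 19.6 to 30 and 5.63 to 8.85, and epithelial markers to 55.8 to 59.5, against 23.6 to 38.3 and 10.8 to 20.4. Progenitor markers, at 35 to 43.9, and markers of Sox10 cells, at 8.84 to 12.2, were lower in Foxf1 cells than in both. In the controls the progenitor markers summed to 111 to 272 CPM in Hox 3 cells and 59.8 to 74 in Hoxa2 cells, the markers of Sox10 cells to 29.9 to 183 and 12.4 to 43.3, and the neuronal markers to 42.4 to 74.5 and 24.1 to 28.7. Foxf1 subclass markers summed to 50.5 to 53.8 and 15.9 to 16.9 in the same cells, and endothelial markers to 4.05 to 4.29 and 1.19 to 1.4. The part of all these markers in the subclass differences was not tested.

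Plxna2 had the largest difference of the 9 members between Hox 3 and Hoxa2 cells. Hox 3 cells had 42.8, 53.6, 44.8 and 68.7 CPM, Hoxa2 cells 11.6, 15.3, 12.7 and 26.7, and Foxf1 cells 19.3, 29.5, 19.2 and 23.7. The Hox 3 values lay above all others, by 1.78 ± 0.15 over Hoxa2 cells (adjusted p = 3.4e-06), a call that held without each library in turn. Foxf1 cells were lower than Hox 3 cells by -1.04 ± 0.17 (adjusted p = 0.000771, and 0.0657 without control replicate 1) and higher than Hoxa2 cells by 0.74 ± 0.19 (adjusted p = 0.0111, and 0.103 and 0.295 without control replicate 1 and 2). Foxf1 cells were also below Hox 3 cells in Nrp2 (-1.3 ± 0.25, adjusted p = 0.00253) and in Plxna4 (-1.74 ± 0.55, adjusted p = 0.0432). Neither call held without control replicate 2, nor that of Plxna4 without control replicate 1. The Plxna4 difference was then -2.93 and -0.68, and it rested on 4 and 9 UMIs in the control Foxf1 cells. That of Nrp2 was -0.96 without control replicate 2.

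Sema3c was lowest in Hoxa2 cells, at 2.67, 1.80, 2.51 and 6.84 CPM, while Foxf1 cells had 9.46, 9.43, 2.47 and 12. Null replicate 1 broke the pattern, with its Foxf1 value level with its Hoxa2 value. In the controls Foxf1 cells were higher by 2.0 ± 0.39 (adjusted p = 0.00231), lost without control replicate 2 (1.75, adjusted p = 0.113). Foxf1 cells were above Hoxa2 cells in Sema3f too (0.74 ± 0.25, adjusted p = 0.0484), and not without control replicate 1 or 2 (adjusted p = 0.162 and 0.567). The other 6 members higher in Hox 3 than in Hoxa2 cells were Sema3a (0.64), Sema3c (1.17), Sema3f (1.1), Nrp2 (0.62), Plxna4 (1.31) and Plxnd1 (0.86), with adjusted p from 0.0031 to 0.0494. None of these 6 held without control replicate 2, where adjusted p ran from 0.121 for Plxna4 to 0.889 for Nrp2. Without control replicate 1 the same was so of all but Sema3f.

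**Figure D3:**
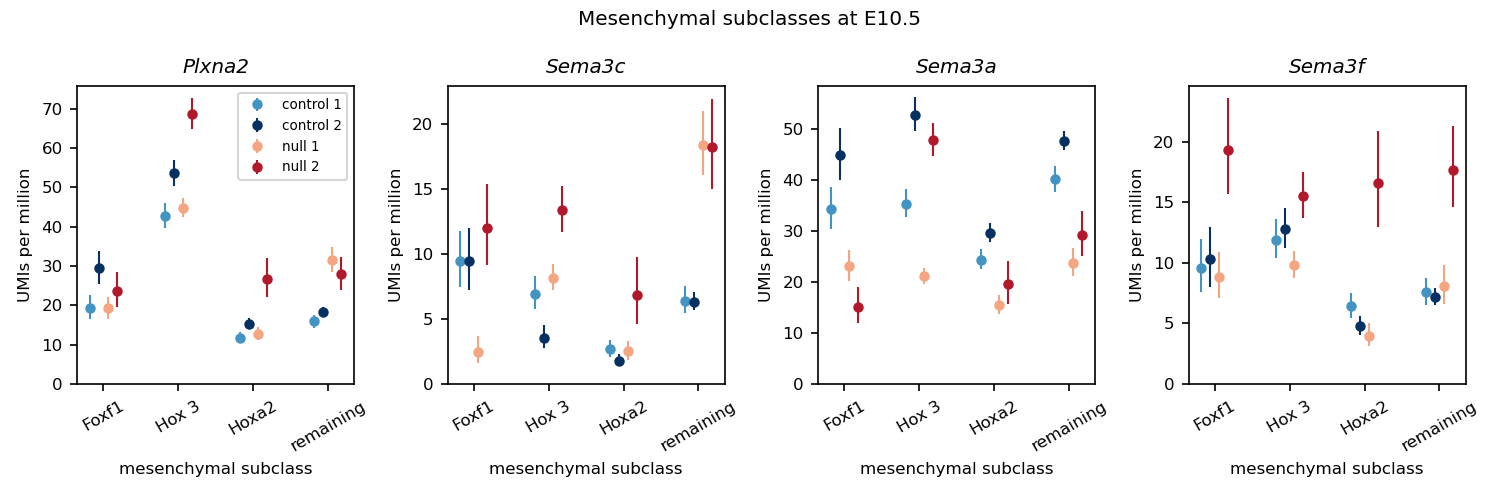
Levels of 4 members (CPM, linear axis from 0) in Foxf1, Hox 3, Hoxa2 and remaining mesenchymal cells of the E10.5 libraries, 1 point per library with its exact 95% Poisson interval. Plxna2 is at 42.8 to 68.7 in Hox 3 cells and at 31.6 or less in the other 3 groups, and Sema3c in remaining cells is at 6.34 and 6.41 in the controls and at 18.2 and 18.4 in the null libraries.

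Across stages there was 1 library at E8.5, a control, and 1 of each genotype at E9.5, the dissected tissue and the kit differed, and no test was made. The intervals given are exact Poisson and cover counting error only. Sema3a in control mesenchymal cells stood at 2.53 CPM (95% interval 1.95 to 3.23) at E8.5 and 9.65 (9.09 to 10.2) at E9.5, below both E10.5 controls. At E9.5 it was already high in the few Foxf1 cells, at 30.8 CPM (24.8 to 37.8; 104 cells), whereas Hox 3 and Hoxa2 cells had 3.81 and 4.68. The null library at E9.5 showed the same order, 29.6, 4.96 and 6.35 CPM. Sema3f in mesenchymal cells had 0.740 CPM in the E8.5 library, 1.38 in the E9.5 control, and 8.48 and 7.60 in the E10.5 controls.

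Receptors of the Sox10 class, cells past that gate alone, differed by stage too. Nrp1 had 9.99 CPM (7.92 to 12.4) in the E8.5 library, 32.6 (29.5 to 35.9) in the E9.5 control and 44.7 and 62.0 in the E10.5 controls, and Nrp2 at 26.8, 63.5, 84.7 and 109.7. Plxnd1 had 1 UMI in 326 Sox10 cells at E8.5 (0.125 CPM, interval 0.00316 to 0.696), then 1.96 CPM in the E9.5 control, and the E10.5 controls had 12.9 and 15.7. Plxna4, at 5.49 and 8.17 CPM on the earlier days, was below the 28.2 and 34.8 of E10.5. Sema3d was not detected in E8.5 Sox10 cells, which allows a level of up to 0.375 CPM at 3 UMIs, and stood at 1.02 CPM at E9.5.

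In mesenchymal cells Plxna4 and Nrp2 were higher at E8.5 than at E9.5. Plxna4 had 8.84 CPM (7.73 to 10.1) in the E8.5 library, 4.92 (4.52 to 5.35) in the E9.5 control, and 2.35 and 2.27 in the E10.5 controls, and Nrp2 had 23.3, 10.5, 19.9 and 33.4. Sema3c in Sox10 cells was highest at E9.5, at 16.5 CPM (14.3 to 18.9) against 4.00 (2.73 to 5.64) a day before and 5.21 and 4.65 a day later. Plxna2 in progenitors stood at 5.22 CPM (4.46 to 6.06) at E8.5 and 49.3 (46.6 to 52.1) at E9.5, and in neuronal cells at 6.27 and 53.5. At E8.5, 1564 cells passed both the Sox10 and the mesenchymal gate, and they had Nrp2 at 26.4, Plxna4 at 10.1 and Sema3a at 1.38 CPM. Such cells numbered 716 in the E9.5 control and 10 and 17 in the E10.5 controls. The Sox10 class, which leaves them out, held 326, 550, 151 and 426 cells. Its levels by stage are thus those of a changing part of the cells with Sox10. In the E9.5 control the cells past both gates had Sema3c at 4.48, Sema3d at 2.78, Nrp1 at 28.3, Nrp2 at 30.1, Plxna4 at 7.37 and Plxnd1 at 2.01 CPM.

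**Figure D4:**
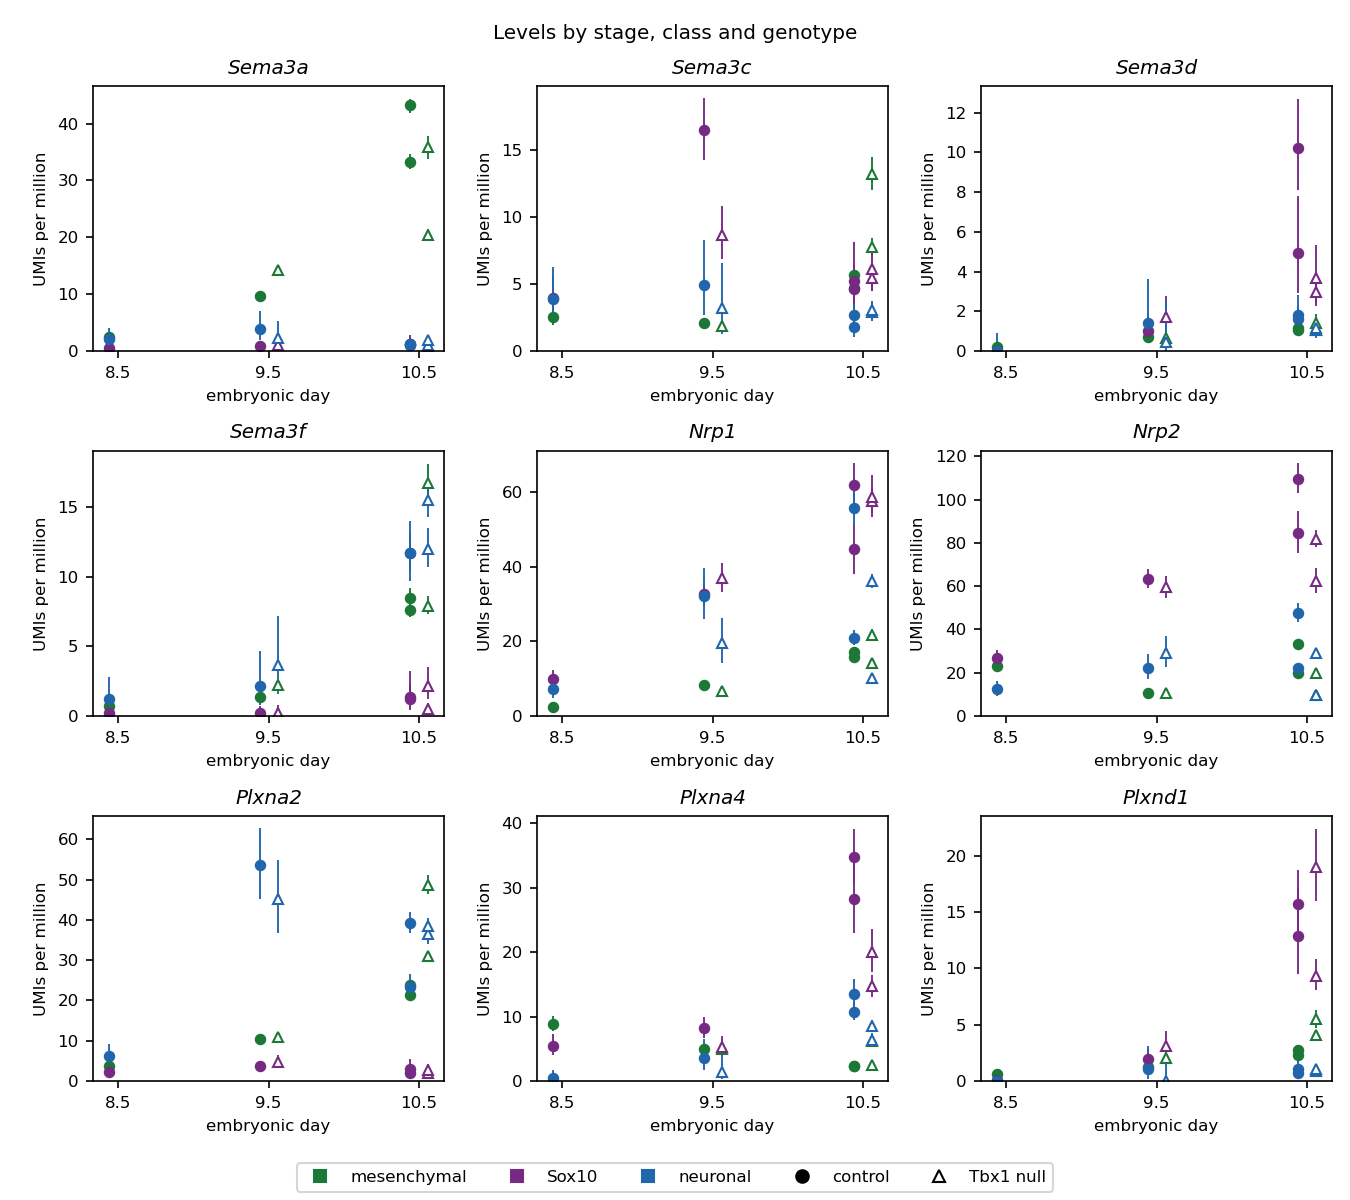
Levels of the 9 members (CPM, linear axis from 0) in mesenchymal, Sox10 and neuronal cells (colors) by embryonic day, 1 point per library with its exact 95% Poisson interval, controls as filled circles and null libraries as open triangles. Nrp1, Nrp2, Plxna4 and Plxnd1 in Sox10 cells and Sema3a in mesenchymal cells stand higher in the controls at E10.5 than at E8.5.

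The question of the study, whether loss of Tbx1 changes the crest, was asked of the members at E10.5 with edgeR's quasi-likelihood test between 2 control and 2 null libraries, class by class. In the 6 classes planned for testing 0 members passed, where 0.115% of genes passed in all mesenchymal cells, 0.0848% in Foxf1 cells, 0% in Hox 3 cells, 0.174% in Hoxa2 cells, 0.195% in Sox10 cells and 0% in neuronal cells. At an unadjusted p under 0.05 there were 5, 1, 3, 3, 2 and 1 members in the same order, where 2232 of 15704, 1366 of 11787, 1447 of 13475, 1636 of 13218, 1220 of 11789 and 895 of 13942 genes were under it, and DESeq2 called 0 members in each of them. All 9 members were tested except Plxna4 in Foxf1 cells and Sema3a in Sox10 cells, which had too few UMIs. The scale factors of the fit shifted null against control by -0.18 (log2) in all mesenchymal cells and by -0.04 to -0.18 in the other classes, and fold changes are relative to that shift.

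In all mesenchymal cells the null libraries lay above both controls for 4 members and below for 1, where 35.7% and 13.5% of genes did. Here and below this background is over genes with 40 or more UMIs in the 4 libraries. Nrp2 was the 1 below (19.9 and 33.4 CPM in controls, 9.64 and 19.8 in null libraries; -1.07 ± 0.36, adjusted p = 0.265). Those above were Sema3c (0.81 ± 0.27, adjusted p = 0.265), Plxna2 (0.62 ± 0.24, adjusted p = 0.302), Plxnd1 (0.72 ± 0.28, adjusted p = 0.314) and Plxna4 (0.7 ± 0.4, adjusted p = 0.457). Without control replicate 1 the Nrp2 difference was -1.42, and over all alternatives it ran from -1.55 to -0.62. The make-up of this class differed between genotypes: Hox 3 cells were 730 of 3207 and 1001 of 6533 mesenchymal cells in the controls and 1301 of 2913 and 821 of 1516 in the null libraries, and within Hox 3 cells the difference of Plxna2 was 0.06. The part of this make-up in the differences over all mesenchymal cells was not tested. In the same sums the 4 neuronal markers Tubb3, Dcx, Map2 and Nefl summed to 31.5 to 43.5 CPM in controls and 52.2 to 179 in null libraries, the 4 progenitor markers to 68.1 to 126 and 199 to 365, and the 5 markers of Sox10 cells to 19.2 to 77.3 and 134 to 147. Their part in these differences was not tested.

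Sema3c was the only member that passed in any class against the controls, and it did so in the remaining mesenchymal cells, those past none of the Foxf1, Hox 3 and Hoxa2 gates. This class was tested after its levels had been seen, so the p is no independent evidence. The levels were 6.41, 6.34, 18.4 and 18.2 CPM, with the replicates of each genotype nearly equal and the genotypes well apart. The difference was 1.35 ± 0.22 (adjusted p = 0.0322; 1.27% of genes passed, 0.92% higher). Without null replicate 1 it was 1.31 and not called. With subclass gates at 1 UMI it was 1.26 (adjusted p = 0.0703), and with the gates set on thinned counts it was 0.32 (adjusted p = 0.671). In mesenchymal cells with no UMI of the neuronal gate genes it was 1.38 (adjusted p = 0.0182). Progenitor markers in this class summed to 61.3 to 98.5 CPM in controls and 258 to 284 in null libraries, markers of Sox10 cells to 21 to 54.4 and 104 to 164, epithelial markers to 33.8 to 52.7 and 91 to 108, and neuronal markers to 32 to 40.1 and 55.7 to 169. Their part was not tested. Among Foxf1 cells Sema3c was 9.46, 9.43, 2.47 and 12 CPM, and the genotypes overlapped.

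In these remaining cells the null libraries lay above both controls for 6 members and below for 2 (36.8% and 15% of genes). Sema3a was below, at 40.2, 47.8, 23.7 and 29.3 CPM (-0.92 ± 0.22, adjusted p = 0.0858), and so was Nrp2 (-1.01 ± 0.32, adjusted p = 0.152). DESeq2 called Sema3a as well (adjusted p = 0.019). Of the wider pathway, 2 genes passed here and 0 in the 6 planned classes: Dpysl5, a cytoskeletal effector of semaphorin signaling in neurons, was higher (2.15 ± 0.29, adjusted p = 0.0221), in the class where neuronal markers were higher too, and Sema5a, a transmembrane semaphorin, was lower (-1.36 ± 0.22, adjusted p = 0.033).

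Sema3a in Foxf1 cells had the lowest unadjusted p of a member in the planned tests of null against control within a class. It measured 34.4, 44.9, 23.1 and 15.1 CPM, with both null libraries below both controls, and the difference was -1.09 ± 0.28 (adjusted p = 0.185, unadjusted 0.00228). Without control replicate 1 the difference was -1.24 and without null replicate 1 it was -1.44. Over all alternatives it ran from -1.44 to -0.79. Progenitor markers in Foxf1 cells summed to 35 to 43.9 CPM in controls and 53.9 to 109 in null libraries, markers of Sox10 cells to 8.84 to 12.2 and 16.6 to 42.7, and neuronal markers to 28.9 to 34.2 and 34.8 to 140.3, and their part was not tested. In Hoxa2 cells Sema3a was 24.4, 29.7, 15.5 and 19.6 CPM (-0.79 ± 0.23, adjusted p = 0.235), and in Hox 3 cells 35.4, 52.9, 21.1 and 48.0, where the genotypes overlapped. Null libraries lay below or above both controls for 2 and 1 of 9 members in Foxf1 cells (17.6% and 26.1% of genes), 1 and 1 in Hox 3 cells (12.6% and 33.4%) and 3 and 2 in Hoxa2 cells (14.8% and 31.2%).

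The genotype difference of Nrp1 was not the same in both arch groups. In Hox 3 cells it was 14.2, 16.0, 8.90 and 12.5 CPM, null below control (-0.68 ± 0.26, adjusted p = 0.439). With cells past more than 1 gate kept, the direction reversed to a log2 difference of 0.3 (adjusted p = 0.756). Over all classes, cells past the neuronal and another gate numbered 133 and 144 in the controls and 456 and 915 in the null libraries, and their part was not tested. In Hox 3 cells smooth muscle markers summed to 19.6 to 30 CPM in controls and 5.15 to 16.9 in null libraries. Foxf1 subclass markers summed to 50.5 to 53.8 and 27.8 to 45.9. The mesoderm markers, Tbx1 itself among them, summed to 10.3 to 16.4 and 7.17 to 8.12. Neuronal markers summed to 42.4 to 74.5 and 68.6 to 201, and progenitor markers to 111 to 272 and 287 to 511. Markers of Sox10 cells summed to 29.9 to 183 and 199 to 213. The part of all these markers in the Nrp1 difference was not tested. In Hoxa2 cells Nrp1 was 13.6, 14.6, 15.5 and 39.4, null above control with most of the gap in null replicate 2 (0.74 ± 0.36, adjusted p = 0.453). Markers of other cells reached higher sums in null Hoxa2 cells. Foxf1 subclass markers summed to 15.9 to 16.9 CPM in controls and 27.6 to 98.7 in null libraries, smooth muscle markers to 5.63 to 8.85 and 5.5 to 45.6, neuronal markers to 24.1 to 28.7 and 30.5 to 147, markers of Sox10 cells to 12.4 to 43.3 and 61 to 67.5, and progenitor markers to 59.8 to 74 and 81.1 to 187, and their part in the Nrp1 difference was not tested. Neither passed on its own. Over the alternatives the Nrp1 difference in Hoxa2 cells ran from 0.06 to 1.29, the highest without null replicate 1, which leaves null replicate 2 alone. The difference between the 2 genotype effects did pass, at -1.25 ± 0.24 (adjusted p = 0.0222, 1.45% of genes), but not without control replicate 1 or 2 (adjusted p = 0.125 and 0.362) or after thinning (adjusted p = 0.0565). It was the 1 member called in that interaction, and 0 were called for Foxf1 against Hox 3 cells (0.955% of genes) or Foxf1 against Hoxa2 cells (1.31%). Nrp2 in Hoxa2 cells was 17.1, 21.5, 8.99 and 15.7 CPM (-0.85 ± 0.29, adjusted p = 0.29, and -1.17 to -0.49 over the alternatives). Plxnd1 there was 1.91, 2.22, 4.25 and 5.93 CPM (1.11 ± 0.36, adjusted p = 0.278).

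In Sox10 cells the null libraries lay below both controls for 4 members and above for 1 (16.5% and 25.1% of genes), and 1 of the 4, Sema3a, had only 4, 10, 6 and 5 UMIs, under the minimum of that background. The neuronal markers in these cells summed to 104 to 108 CPM in controls and 154 to 228 in null libraries, and the markers of Sox10 cells to 938 to 1271 and 798 to 879, and their part was not tested. Plxna4 was 28.2, 34.8, 14.7 and 20.1 CPM, with a clear gap between genotypes and -0.92 ± 0.26 (adjusted p = 0.208). Sema3d was 4.93, 10.2, 2.96 and 3.66 CPM (-1.3 ± 0.41, adjusted p = 0.266). Without null replicate 2 Plxna4 was at -1.14 and Sema3d at -1.44. Over all alternatives Plxna4 ran from -1.14 to -0.72 and Sema3d from -1.66 to -0.62. Nrp2 was 84.7, 109.7, 81.8 and 62.6 CPM (-0.47 ± 0.25, adjusted p = 0.526), and the fourth, Sema3a, was not tested there. In neuronal cells Plxna4 was also lower, at 10.8, 13.5, 6.34 and 8.52 CPM (-0.78 ± 0.29, adjusted p = 0.738). There 2 members had null below and 2 had null above both controls (13% and 27.9% of genes), and Nrp1 and Nrp2 varied more between replicates than between genotypes.

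Whether the genotype effect differed between classes was tested directly. For Sox10, neuronal and progenitor cells against mesenchymal cells, and Sox10 against neuronal cells, 0 members passed edgeR's test (0.0195%, 0.0974%, 0.0195% and 0.00649% of genes). The nearest were Plxna4 in neuronal against mesenchymal cells (-1.5 ± 0.33, adjusted p = 0.126), Plxnd1 in progenitors against mesenchymal cells (-2.17 ± 0.43, adjusted p = 0.171) and Plxna4 in Sox10 against mesenchymal cells (-1.56 ± 0.34, adjusted p = 0.249).

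In contractile cells the genotype effect differed from that of other mesenchyme for 2 members (1.31% of genes). This test too was added after the levels had been seen. Nrp2 was 14.3 and 6.28 CPM in control and 22.1 and 19.6 in null contractile cells, while the other mesenchymal cells had 20 and 34.2 in controls and 9.40 and 19.8 in null libraries. The order of the genotypes was reversed between the 2 groups, a difference of 2.04 ± 0.47 (adjusted p = 0.0309). Plxna2 was 20.1, 28.3, 9.99 and 28.5 CPM in contractile and 21.5, 23.8, 31.4 and 49.5 in other cells (-1.22 ± 0.28, adjusted p = 0.0326). Neither passed without control replicate 2 or without null replicate 1. After thinning neither passed, with Nrp2 at 2.55 (adjusted p = 0.0698) and Plxna2 at -0.69 (adjusted p = 0.929). Contractile cells numbered 53 and 45 in the null libraries, and Nrp2 in contractile cells of control replicate 2 rested on 18 UMIs. Nrp1 and Plxnd1 were high in contractile cells of both genotypes.

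**Figure D5:**
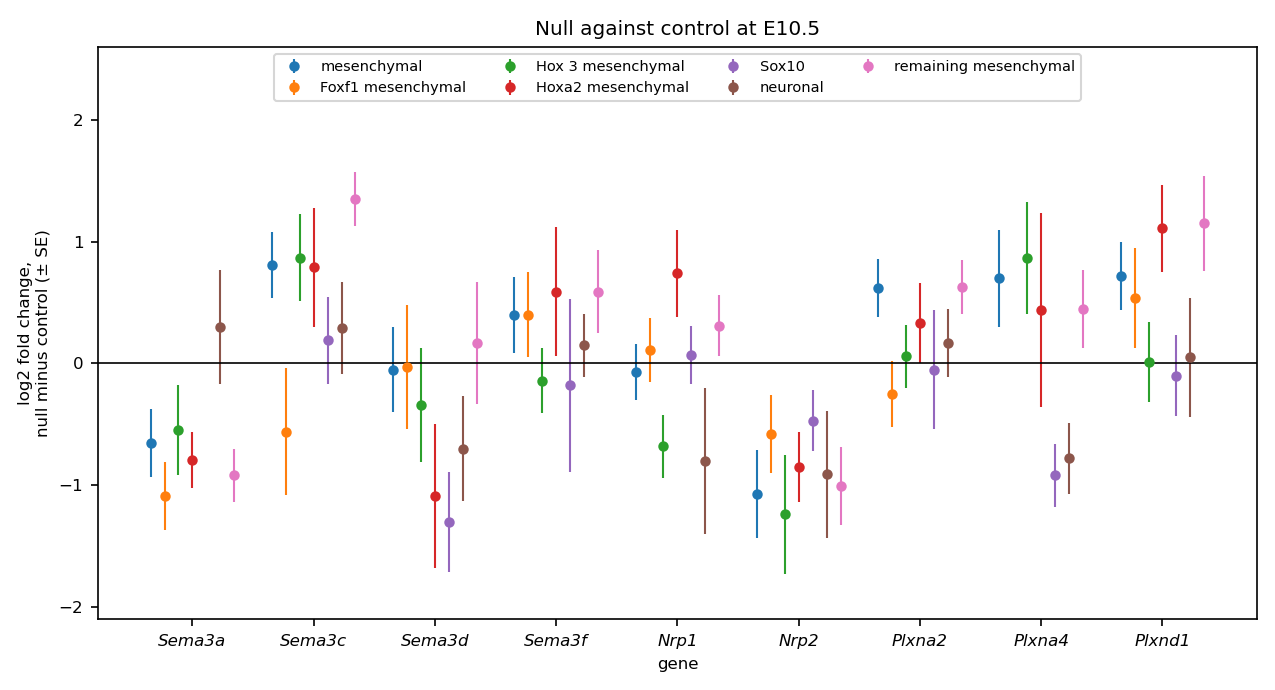
Log2 fold change of each tested member, null minus control at E10.5, in 7 cell classes, as points with the standard error of edgeR's fit as bars. Nrp2 lies below 0 in all 7 classes, and the Sema3c point of the remaining mesenchymal cells, at 1.35, is the one that passed at an adjusted p under 0.05.

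At E9.5 each genotype had 1 library, so the values compare libraries and carry counting intervals only. The log2 ratios are scaled by TMM as in the fits, so they differ somewhat from the ratio of the CPM values. Sema3a in mesenchymal cells was 9.65 CPM in the control and 14.2 in the null library, a log2 ratio of 0.50 (0.39 to 0.61), whereas at E10.5 it was -0.65 and not called. The dissected tissue differed between these stages. At E9.5 the ratio was -0.14 (-0.52 to 0.25) in Foxf1 cells and 0.29 (-0.27 to 0.86) in Hox 3 cells. It was 0.37 (-0.12 to 0.88) in Hoxa2 cells and -1.28 (-2.13 to -0.53) in progenitors. Foxf1 cells were 104 of 4585 mesenchymal cells in the control and 207 of 6410 in the null library. The part of this make-up was not tested. Plxnd1 in mesenchymal cells was 1.24 and 2.02 CPM (0.65, 0.35 to 0.95, and 1.06 after thinning) and in Hoxa2 cells 0.858 and 2.07 (1.17, 0.15 to 2.36; 11 and 27 UMIs), null above control. In Hox 3 cells it was 2.42 and 2.36 (-0.12, -0.91 to 0.65) and in Foxf1 cells 2.01 and 0.377 (-2.29, -5.84 to -0.01), from 6 and 2 UMIs. Sema3f was 1.38 and 2.20 CPM (0.61, 0.33 to 0.90). Nrp1 was 8.29 and 6.65 CPM in mesenchymal cells (-0.38, -0.51 to -0.25, and -0.16 after thinning) and 13.3 and 9.18 in Hoxa2 cells (-0.60, -0.95 to -0.26), an order that Hoxa2 cells did not keep at E10.5.

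Sox10 cells at E9.5 had Sema3c at 16.5 CPM in the control and 8.70 in the null library, from 210 and 81 UMIs (-0.96, -1.36 to -0.59), and after thinning the log2 ratio was -0.31. Plxna4 was 8.17 and 5.26 CPM (-0.67, -1.20 to -0.18), null below control as at E10.5. In the 716 and 636 cells past both the Sox10 and the mesenchymal gate, the intervals included 0 for both genes. The log2 ratio there was -0.39 (-0.89 to 0.10) for Sema3c and -0.08 (-0.45 to 0.28) for Plxna4. Plxna2 in Hox 3 cells was 27.7 and 34.5 CPM (0.23, 0.02 to 0.43). The kit differed between these 2 libraries, and kit and genotype cannot be told apart at E9.5.

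Most other semaphorins, 11 of 15 tested, were higher in neuronal than in mesenchymal cells. In this contrast 62.8% of all genes passed, 30.5% higher and 32.2% lower. The list held 16 semaphorins, and 1 was lower in neuronal than in mesenchymal cells (median 1.51 on the log2 scale, against -0.02 over all genes). Of 6 other plexins 4 were higher and 1 lower, and of 20 intracellular effectors 11 were higher and 2 lower. Of the 6 co-receptors and VEGF partners, 5 were higher in Hox 3 than in Hoxa2 cells, where 14.7% of genes passed (7.89% higher and 6.83% lower): Kdr, the main VEGF receptor (2.1 ± 0.4, adjusted p = 0.0027), Vegfa (0.92 ± 0.13, adjusted p = 0.000268), and the adhesion molecules L1cam, Chl1 and Nrcam that accompany neuropilins in axons, in the cells where neuronal markers were at 42.4 to 74.5 CPM against 24.1 to 28.7. The 5 endothelial markers, Kdr among them, summed to 4.05 to 4.29 CPM in control Hox 3 cells and 1.19 to 1.4 in control Hoxa2 cells. The part of these markers was not tested. In contractile cells Kdr and Flt1, which bind VEGF, were higher than in other mesenchyme (3.81 ± 0.4 and 3.68 ± 0.56), L1cam too (5.86 ± 0.49), and Vegfa lower (-0.92 ± 0.22, adjusted p = 0.0025).

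The genes most like each member were sought over 51 sums of a class in a library, which share libraries and depth, by Pearson's r of log2(CPM + 1). Sema3a was nearest to the collagen receptor Ddr2 (0.95) and Plxna2 to Dach1 (0.91), Tshz3 (0.89) and the guidance ligand Slit2 (0.88). Nrp2 was nearest to Ngfr (0.84), the neurotrophin receptor of crest cells, and Plxnd1 to Wipi1 (0.90), Snx18 (0.90) and the matrix gene Postn (0.89). Nrp1 was nearest to Nol4l (0.86), Plxna4 to S100a16 (0.80), Sema3d to Anxa5 (0.81) and Sema3c, with no close match, to Ikzf2 (0.71). Among the members themselves, r was highest for Sema3d with Plxnd1 (0.78), Sema3f with Plxna2 (0.77) and Nrp1 with Nrp2 (0.72), and lowest for Nrp2 with Plxna2 (-0.52).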

How the data were processed

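Sorted Wnt1-Cre;ROSA-EGFP cells of 7 libraries were sequenced with 10x Genomics kits (version 2, 3 or 3.1). The authors aligned the reads to mm10 and made UMI counts per gene and cell with Cell Ranger 6.0.1, per the labels, and deposited them as filtered count matrices with no normalization. Barcodes under 1000 genes or over 10% mitochondrial UMIs were dropped, and the cells of highest Scrublet doublet score were removed at 0.8% per 1000 barcodes. Raw counts were summed per class and library and tested with edgeR 4.0.16 (quasi-likelihood, TMM scaling, Benjamini-Hochberg adjustment over all genes tested, threshold 0.05), and ± marks the standard error of the log2 difference. DESeq2 1.42.0 was an alternative. Levels carry exact Poisson and shares exact Clopper-Pearson 95% intervals, which cover counting error only. Ratios at E9.5 used TMM scaling and a pseudocount of 0.5 UMIs. Scripts ran in Python 3.11.15 and R 4.3.3 and were tested on simulated data. Libraries are pools of embryos, so p-values of null against control measure the spread between pools. In the class and genotype by class fits the library is a block. Their p-values measure how far class differences vary between libraries. The named genes are the 9 members, the genes of 48 in the wider pathway that passed in a genotype comparison, and for each member the 3 genes of highest correlation among those with a mean of at least 10 CPM over sums of at least 50 cells, the first of which is given for most (that of Sema3f is not reported here). Kdr, Flt1, Vegfa, L1cam, Chl1 and Nrcam were named after their values were seen. The members and lists were chosen with earlier results of these data known.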

Additional observations from a re-analysis of the deposited data

Results flagged for a closer look

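The genotype effect on Nrp1 differed between Hox 3 and Hoxa2 mesenchymal cells by -1.25 ± 0.24 on the log2 scale (edgeR's quasi-likelihood test of the difference, adjusted p = 0.0222). The difference was not called after thinning (adjusted p = 0.0565) or without either control library.

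The genotype effect in contractile cells differed from that in other mesenchymal cells for Nrp2, by 2.04 ± 0.47 (adjusted p = 0.0309), and for Plxna2, by -1.22 ± 0.28 (adjusted p = 0.0326). After thinning the adjusted p was 0.0698 for Nrp2 and 0.929 for Plxna2. The contractile comparison was added after the levels had been seen.

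Cells past no gate, which enter no comparison, carried Sema3c at 41.6 CPM (95% Poisson interval 33.0 to 51.9) in null replicate 1 and 50.4 CPM (36.2 to 68.4) in null replicate 2, from 157 and 85 cells. The controls had 20.2 (15.1 to 26.5) and 22.8 CPM (18.6 to 27.7), from 323 and 440 cells. Hbb-y, an embryonic globin of red blood cells, stood at 13092 CPM in these cells of null replicate 2. Progenitor markers summed to 368 to 469 CPM in the controls and 549.8 to 696 in the null libraries, neuronal markers to 111 to 179.9 and 190.3 to 368, and mesenchymal markers to 138 to 212 and 29 to 82.4. The part of these in the Sema3c level was not tested.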

How the results depend on the processing

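Between genotypes at E10.5 only members whose null libraries lay wholly above or below both controls were followed under the alternatives. Of 470 such values, 436 kept direction and side of the threshold, 20 gained a call, 3 lost one and 11 reversed. Members whose libraries overlapped were not scored, so these counts do not cover them. Class contrasts and genotype by class were followed only for members called in the main fit. Of 376 such class contrast values 323 kept their call and 53 lost it, as did 9 of 24 for genotype by class. Of 84 ratios at E9.5, all of results whose counting interval excluded 0, 5 moved: after thinning, Nrp1 in mesenchymal (-0.16) and neuronal cells (-1.49), Plxnd1 in mesenchymal cells (1.06) and Sema3c in Sox10 cells (-0.31), and with gates raised by 1 UMI Plxna2 in Hoxa2 cells (0.84). The added alternatives and the fit of remaining mesenchymal cells were chosen after seeing the data. The cause of these changes was not tested. With 2 libraries per genotype, the number of calls rested on single libraries throughout.

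Genes called between genotypes numbered, in the order all mesenchymal, Foxf1, Hox 3, Hoxa2, Sox10, neuronal and remaining mesenchymal cells, 18, 10, 0, 23, 23, 0 and 172. DESeq2 called 502, 79, 98, 258, 35, 18 and 551, and with no filter on low counts there were 1084, 342, 63, 654, 211, 160 and 1195. Leaving out 1 library gave 0 to 607, 74 to 960, 13 to 512, 109 to 630, 60 to 496, 1 to 702 and 64 to 558. Thinning gave 65 in mesenchymal, 1 in neuronal and 286 in remaining cells. Gates raised by 1 UMI gave 16 in Foxf1, 41 in Hoxa2, 7 in Sox10 and 101 in remaining cells, and subclass gates at 1 UMI gave 7 in Hox 3 and 48 in remaining cells. Gates on thinned counts gave 39 in Foxf1, 6 in Hox 3, 5 in Sox10, 3 in neuronal and 15 in remaining cells. With 200 genes and 5% mitochondrial UMIs there were 6 in Foxf1 and 351 in remaining cells, with doublets kept 2 in Hox 3, 1 in neuronal and 94 in remaining cells, with mixed cells kept 2 in Sox10 cells, and in cells with no neuronal UMI 17 in Foxf1, 1 in Hox 3 and 359 in remaining cells.

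Members called between genotypes were 0 in the first 6 classes and 1 in remaining cells. With no filter there was 1 in mesenchymal, Foxf1 and Sox10 cells and 4 in remaining cells, where DESeq2 called 2 and subclass gates at 1 UMI or gates on thinned counts 0. Leaving out 1 library gave 0 to 1 in mesenchymal, Foxf1 and Hox 3 cells and 0 to 2 in the other 4. With no filter, Foxf1 against Hox 3 cells gave 5 members and Foxf1 against Hoxa2 cells 6. With no filter, genotype by class gave 3 and 1 in these, 2 for Hox 3 against Hoxa2 cells and 1 each for Sox10, neuronal and progenitor against mesenchymal cells. After thinning Hox 3 against Hoxa2 cells gave 4, and genotype by class gave 0 there and 0 in contractile cells. Leaving out 1 library gave 1 to 5 members for Foxf1 against Hox 3, 0 to 6 for Foxf1 against Hoxa2, 1 to 7 for Hox 3 against Hoxa2, 5 to 8 for Sox10 against mesenchymal, 4 to 8 for progenitor against mesenchymal and 3 to 6 for contractile cells. Genotype by class then gave 0 to 2 for each subclass pair and 0 to 3 for contractile cells.

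The replicate numbers are only shared numbers. The deviations of same-numbered libraries correlated at 0.07 (Hox 3) to 0.325 (Foxf1). With the replicate block, genes called were 405, 532, 82, 189, 214, 2 and 895 in the class order above. It called 1 member in each of mesenchymal (Nrp2, adjusted p = 0.0208), Foxf1 (Sema3a, 0.0127), Hox 3 and Sox10 cells (Plxna4, 0.0272) and 3 in remaining cells.

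Reversed differences were Plxnd1 in Foxf1 cells with doublets kept (-0.05), Sema3c in Hox 3 (-0.21) and Sox10 cells (-0.09) with gates on thinned counts, Nrp1 in Hox 3 cells (0.3) and Sema3f in neuronal cells (-0.02) with mixed cells kept, Sema3c in neuronal (-0.19) and Nrp1 in remaining cells (-0.04) after thinning, and Plxna4 in remaining cells with subclass gates at 1 UMI (-0.3). Without 1 library Sema3f ran from -0.03 to 0.31 in neuronal and -0.01 to 1.06 in remaining cells, and Nrp1 from 0 to 0.59 in remaining cells.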
